A study of Homo sapiens with 4 samples.

Results

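The genes of the eukaryotic translation initiation factors were compared between METTL14 knockdown and control neuroblastoma cells. The members were the protein-coding genes whose symbol starts with EIF followed by a number, except EIF2AK2, EIF2AK3, EIF2AK4 and EIF4EBP1, and 52 of the 60671 gene IDs in the count table met this rule. The cells were SK-N-BE(2), an established human neuroblastoma line with MYCN amplification. The shNC group carried a control short hairpin RNA and the shMETTL14 group carried a hairpin against METTL14, a subunit of the enzyme complex that writes N6-methyladenosine on RNA. Each group had 2 libraries of total RNA. According to the study's methods, hairpins were delivered in the lentiviral vector pLKO.1 and stable lines were selected with puromycin. The methods do not describe the control cells separately, so it is not stated whether they shared vector and drug with the knockdown cells. The labels do not say which METTL14 hairpin was used, nor whether the libraries of a group came from separate cultures, so the p-values below measure the spread between these libraries, which may be technical.

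Translation initiation brings the small ribosomal subunit, the initiator tRNA and an mRNA together at a start codon. The factor eIF2 carries the initiator tRNA as a complex with GTP and is recharged by its exchange factor eIF2B, while eIF3 is the large scaffold on the small subunit. The eIF4F complex binds the mRNA cap through eIF4E, is held together by eIF4G and unwinds leader structure with the helicase eIF4A, which eIF4B and eIF4H stimulate. Start codon choice is guarded by eIF1, eIF1A and eIF5, and eIF5B then joins the large subunit. Growth signals act on this pathway through mTORC1, which controls the eIF4E-binding proteins, and stress acts on it through kinases of eIF2. In MYCN-driven neuroblastoma the pathway is known as part of the heavy demand of the tumor cells for protein synthesis.

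The knockdown was present in both shMETTL14 libraries. METTL14 had 753 and 754 counts in the shNC libraries and 303 and 321 counts in the shMETTL14 libraries, 41.7% of the control level in CPM (log2 fold change -1.26, SE 0.0832). The edgeR quasi-likelihood F-test gave an adjusted p = 3.6e-11 after Benjamini-Hochberg adjustment over the 16309 genes tested. The libraries held between 18925786 and 19886214 counts in genes. All 9 of 9 markers of noradrenergic neuroblastoma cells were expressed highly enough to test, 7 of them lower and 2 higher in the knockdown. Over all genes tested 52.5% were called at an adjusted p under 0.05 (27.2% higher and 25.3% lower). Among genes with a mean of at least 1000 counts 70.7% were called (43.7% higher and 27% lower). The markers were not tested against these shares. Of the markers of other cell types, 4 were tested and 2 of these, VWF and EPCAM, were called lower at 10 to 93 counts per library, while PECAM1, CDH1, ALB and CD14 stood at 12 counts or fewer in every library. The part of such cells in the results below was not tested. These are bulk libraries, in which fewer cells of a type and less RNA per cell cannot be told apart.

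Initiation factor genes changed in both directions after METTL14 knockdown, and nearly always by less than 1.5-fold. Of the 52 members, 49 had enough counts to test, with mean counts from 99 to 21573. EIF4E1B, EIF4EBP3 and EIF1AY did not. At an adjusted p under 0.05, 23 of the 49 were higher in shMETTL14, 12 were lower and 14 were not called. The called members made up 71.4% of those tested, against a background of 52.5% of all genes tested (27.2% higher and 25.3% lower). Among genes with a mean of at least 1000 counts, a limit set after the data were seen, 70.7% were called (43.7% higher and 27% lower), and 31 of the 39 members at such a depth were called (79.5%), 20 higher and 11 lower. The excess of members over all genes was thus smaller among genes of like depth, and it was not tested. Libraries of the groups did not overlap for 43 of the 49 members, against a background of 75.5% of all genes tested. That share was not taken among genes of like depth, and the difference was not tested.

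The sizes were moderate. The median log2 fold change of the members was 0.13, against -0.00095 over all genes tested and 0.07 over genes with at least 1000 counts. With upper quartile normalization both medians moved down, to 0.06 for the members and -0.07 over all genes. The median size of a called change was 0.33 on the log2 scale, and 33 of the 35 called members stayed under 1.5-fold. Only EIF4E3, which rose, and EIF4B, which fell, passed that limit, and 18.8% of all genes tested passed it. The balance of directions depended on the scaling. With upper quartile normalization 17 members were called higher and 14 lower (54.8% higher, against 65.7% with the TMM scaling used here), and with library size alone 19 were higher and 14 lower. Over all genes the same change of scaling moved the higher calls from 51.8% to 41.7%. All members together took 1.08% and 1.10% of the counts in genes in the shNC libraries and 1.04% in each of the shMETTL14 libraries.

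**Figure D1:**
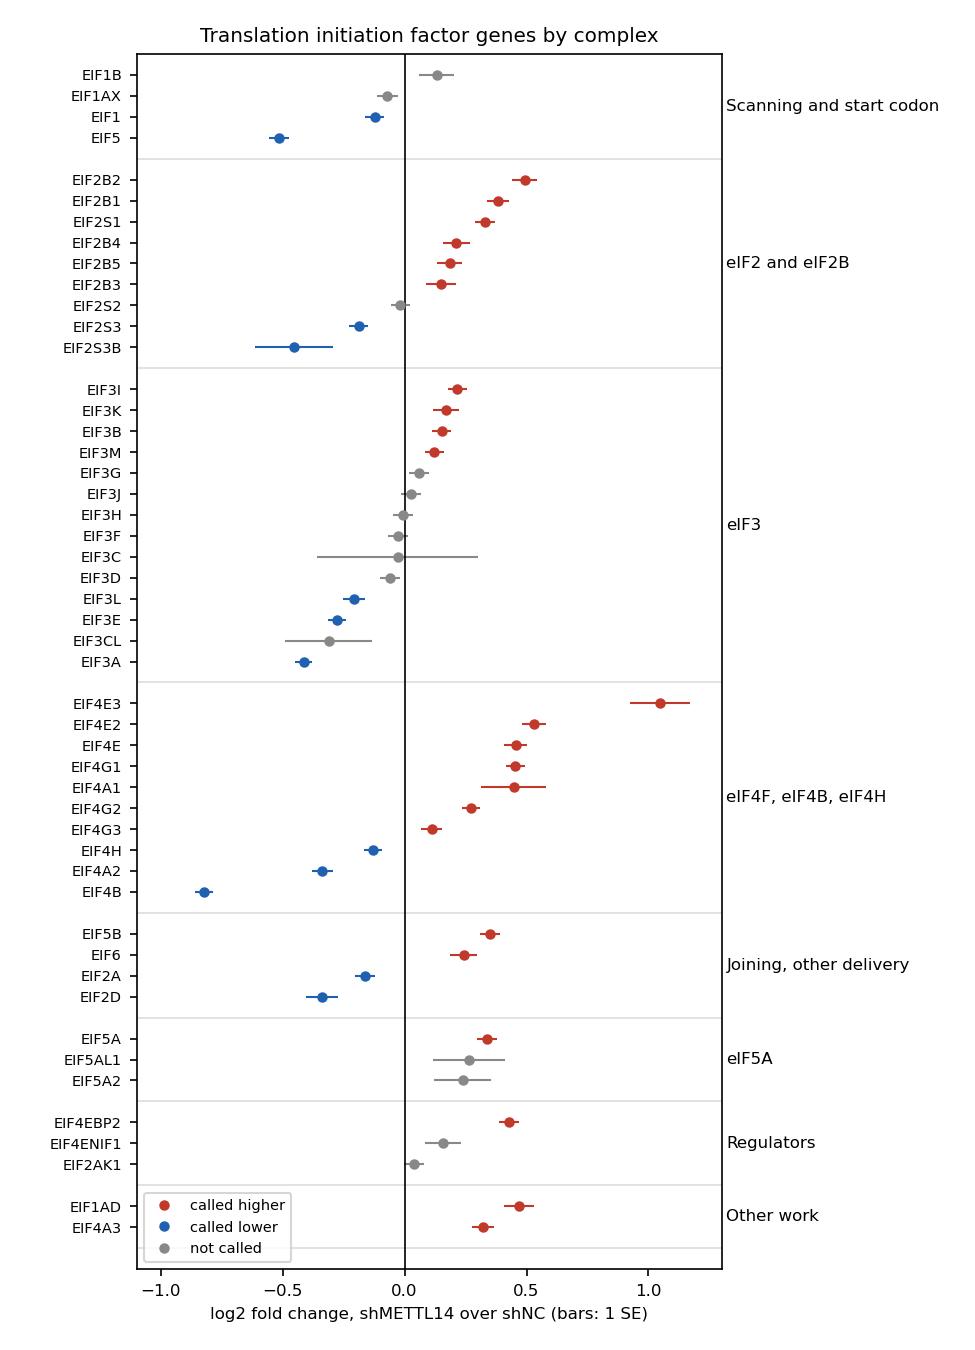
The log2 fold change of shMETTL14 over shNC (x axis) is plotted for each of the 49 initiation factor genes tested, grouped by complex, with bars of 1 SE and colour for the call at an adjusted p under 0.05. Calls run in both directions in the eIF2, eIF3 and eIF4F groups, EIF4B lies lowest at -0.82 and EIF4E3 highest at 1.05.

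The annotated starts of the members fell into a pair of classes with different fold changes. Messenger RNAs of the translation machinery often begin with a C and an unbroken run of pyrimidines, the 5′ terminal oligopyrimidine tract, through which mTORC1 and LARP1 are known to control their translation and stability. The members were therefore sorted by whether an annotated start in RefSeq (GRCh38.p14) is a C followed by 4 or more pyrimidines (C or T), read on the coding strand. Of the 44 members with an entry, 10 had such a start (22.7%), against 4.07% of all 35116 starts in that table and 7.18% of the 11344 genes tested here that have an entry. These 10 were EIF4B, EIF4A2, EIF2S3, EIF2S3B, EIF2D, EIF2A, EIF3D, EIF3F, EIF3K and EIF3M. EIF2AK1, EIF3L, EIF3E, EIF3A, EIF2S2, EIF3G, EIF3H and EIF3CL were not matched and are in neither class. Among these, EIF3A, EIF3E and EIF3L were called lower (log2 fold changes -0.41, -0.28 and -0.21), and the others were not called. The sequences below were chosen by direction of change. They show 5 tract starts of genes that fell and then, for contrast, 4 starts without a tract of genes that rose. Each line gives 10 bases before the annotated first base and 15 from it on, and capitals mark the first base together with any pyrimidines that continue a pyrimidine start without a break.
EIF4B: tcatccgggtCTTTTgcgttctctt
EIF4A2: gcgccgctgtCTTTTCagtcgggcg
EIF2S3: gatttccttcCTCTTTTggcaacat
EIF2D: ccagccgggcCCTTTTCgcggccgg
EIF2A: cgagcggtttCTCTTTCCgggacaa
EIF4E: tggagcggttGtgcgatcagatcga
EIF2B2: cgcccgccccGgaagtgcaaactgt
EIF5B: ctgagaactcAcaccatatgtgtcc
EIF4EBP2: gccttcgcccGcttccggtcgtcgt

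On GRCh38.p14 these windows lie at chr12:53006446-53006470 on the plus strand for EIF4B, chr3:186783567-186783591 on the plus strand for EIF4A2 and chrX:24054946-24054970 on the plus strand for EIF2S3. The windows of EIF2D and EIF2A lie at chr1:206612451-206612475 on the minus strand and chr3:150546777-150546801 on the plus strand. For the contrast genes they lie at chr4:98929119-98929143 on the minus strand for EIF4E, chr14:75002911-75002935 on the plus strand for EIF2B2, chr2:99337379-99337403 on the plus strand for EIF5B and chr10:70404135-70404159 on the plus strand for EIF4EBP2. Each window spans the promoter edge and the first bases of exon 1 of the RefSeq transcript.

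Of the 10 members with a tract start, 6 fell, 2 rose and 2 were not called, with a median log2 fold change of -0.18 and a range from -0.82 to 0.17. Of the 31 tested members with an entry and no tract start, 21 rose, 3 fell and 7 were not called, with a median of 0.24. The tract genes that did not fall were all of eIF3, with EIF3K and EIF3M higher and EIF3D and EIF3F not called. Several eIF3 genes had no entry, among them EIF3A, EIF3E and EIF3L, which fell. EIF5, EIF1 and EIF4H fell without a tract. Among tract genes the pyrimidine run was longest in EIF3D and EIF3F (10 bases) and shortest in EIF4B (5 bases). Over all genes tested the classes differed in the same direction by less, with a median of -0.07 for the 814 genes with a tract (36% called lower, 22.7% higher) and 0.03 for the 10530 genes without one (25.6% lower, 31.8% higher). These are descriptions without a test. RefSeq starts are not starts measured in these cells, a gene with several annotated starts was counted as a tract gene if 1 of them matched, and EIF2S3 and EIF2S3B are close copies that share most of their first bases.

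**Figure D2:**
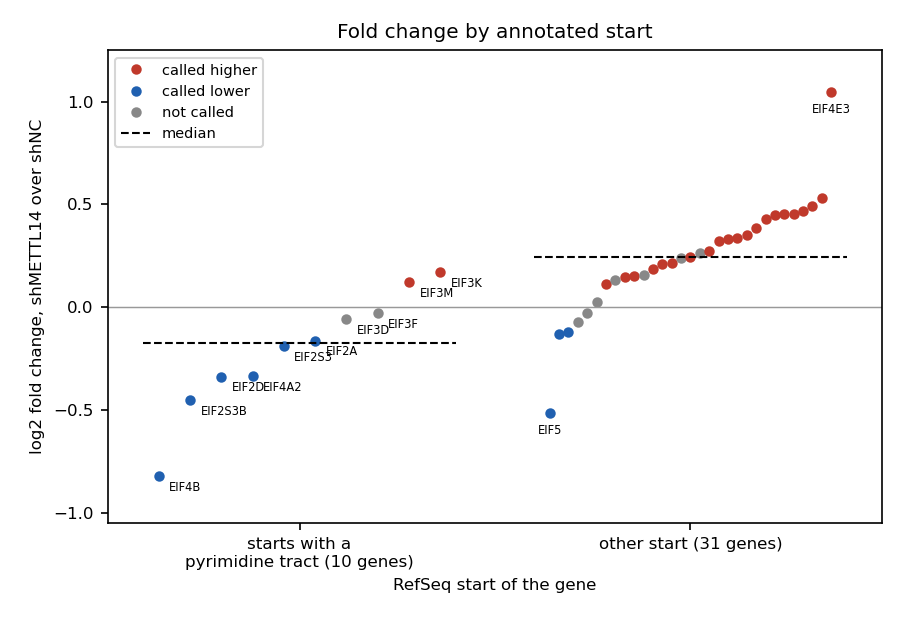
The log2 fold change of shMETTL14 over shNC (y axis) is plotted for the 10 tested members with a pyrimidine tract at an annotated RefSeq start and the 31 without one, ordered by value within each class, with the class median as a dashed line. The medians lie at -0.18 and 0.24, with EIF4B lowest in the first class and EIF5 lowest in the second.

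In the eIF4F group the cap-binding and scaffold genes rose, whereas EIF4B, EIF4H and the helicase gene EIF4A2 fell. All 10 tested genes of the group were called, 7 higher and 3 lower, and the median log2 fold change was 0.36. Over all genes tested 52.5% were called, and 70.7% of those with a mean of at least 1000 counts. The calls of EIF4G3, EIF4A1 and EIF4H were lost under some alternatives. EIF4B, which stimulates the helicase eIF4A, had 23232 and 23007 counts in shNC and 13177 and 12811 in shMETTL14. Both knockdown libraries lay far below both controls, while the groups did not overlap for 75.5% of all genes tested. Its level was 1184 CPM (counts scaled to library size, SD 25.4, n = 2) in shNC and 669 CPM (SD 5.18, n = 2) in shMETTL14, which is 56.6% of the control level (log2 fold change -0.82, SE 0.0364, edgeR adjusted p = 5.6e-14). The fold change lay between -0.89 and -0.80 under the other processing choices. In GENCODE 29, 23.9% of its longest coding transcript is covered by other genes, and its 9 named pseudogenes held 2.88% of its count in shNC library 1.

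The cap-binding genes rose. EIF4E, the canonical cap-binding protein, had 1687 and 1655 counts in shNC and 2284 and 2268 in shMETTL14 (log2 fold change 0.46, SE 0.0457, edgeR adjusted p = 2.8e-08). EIF4E2, a cap-binding relative linked to translational repression, had 1283 and 1209 counts in shNC and 1785 and 1792 in shMETTL14 (log2 fold change 0.53, SE 0.0497, edgeR adjusted p = 9.9e-09). EIF4E3, a further relative, had the largest increase of any member, from 133 and 140 counts to 269 and 292, which is 207% of the control level (log2 fold change 1.05, SE 0.123, edgeR adjusted p = 2.9e-07). Named pseudogenes of EIF4E, 5 in all, held 15.3% and 15.05% of its count in the shNC libraries and 16.4% and 16.5% in the shMETTL14 libraries, and their part in its rise was not tested. In each of these genes both knockdown libraries stood above both controls, but the groups also did not overlap for 75.5% of all genes tested. EIF4E3 was nevertheless the lowest of the 3 in counts. Per kilobase of the longest coding transcript it was also lowest, at 0.703 CPM per kb in shNC and 1.45 in shMETTL14. EIF4E had 95.2 and 131, and EIF4E2 had 39.7 and 57.4. The gaps per kilobase depend on the annotated transcript length, which is 898 bases for EIF4E, 1604 for EIF4E2 and 9949 for EIF4E3. Other annotated genes cover 33.7% of the EIF4E2 transcript, all of them on the opposite strand.

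Shares within a library, which do not depend on scaling, placed the rise of EIF4E and EIF4E2 side by side. EIF4E2 made up 43.2% and 42.2% of the counts of EIF4E and EIF4E2 together in shNC, and 43.9% and 44.1% in shMETTL14. The 95% Wilson intervals of these shares overlapped and lay between 40.4% and 45.7% over the 4 libraries. EIF4E3 took 4.29% and 4.66% of the counts of the 3 genes in shNC and 6.20% and 6.71% in shMETTL14, a share added after the data were seen. With 2 libraries on each side, the smallest p of an exact two-sided permutation test is 0.33, and each of these shares gave that p.

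The scaffolds rose by unequal amounts. EIF4G1, the main scaffold, had 7064 and 6643 counts in shNC and 9418 and 9242 in shMETTL14 (log2 fold change 0.45, SE 0.0378, edgeR adjusted p = 1.6e-09). EIF4G2, a scaffold that lacks the eIF4E site and serves cap-independent initiation, had 19794 and 19435 counts in shNC and 23994 and 23067 in shMETTL14 (log2 fold change 0.27, SE 0.0357, edgeR adjusted p = 1.4e-06). EIF4G3, a paralog of EIF4G1, had 2868 and 2699 counts against 3067 and 2909, with a log2 fold change of 0.11 (edgeR adjusted p = 0.034). That call was lost under 6 of 12 alternatives, with adjusted p from 0.019 to 0.41. Among them were the edgeR fits without shNC library 2 (adjusted p = 0.098) and without shMETTL14 library 1 (adjusted p = 0.24). Of the counts of EIF4G1 and EIF4G3 together, EIF4G3 held 28.9% in each shNC library and 24.6% and 23.9% in the shMETTL14 libraries, whose counting intervals lay apart (exact permutation p = 0.33). The ratio of EIF4G1 to EIF4B counts went from 0.304 and 0.289 in shNC to 0.715 and 0.721 in shMETTL14.

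The helicase genes EIF4A2 and EIF4A1 were called in opposite directions, the latter on uncertain counts. EIF4A2, 1 of the eIF4A helicases, had 7878 and 8178 counts in shNC and 6227 and 6405 in shMETTL14 (log2 fold change -0.34, SE 0.0428, edgeR adjusted p = 8.2e-07). EIF4H, the second helicase cofactor, had 9617 and 9524 counts against 8718 and 8671 (log2 fold change -0.13, SE 0.0378, edgeR adjusted p = 0.0065), and its call was lost without shMETTL14 library 1 (edgeR adjusted p = 0.079; over the alternatives p ran from 0.00016 to 0.079). EIF4A1, usually the main helicase, was counted at 144 and 149 in shNC and 187 and 210 in shMETTL14 (log2 fold change 0.45, SE 0.133, edgeR adjusted p = 0.0073). Its counts are uncertain, since other annotated genes, the SENP3-EIF4A1 readthrough gene among them, cover 100% of its longest coding transcript, and its 13 named pseudogenes held 197% of its own count in shNC library 1 and 155% in shMETTL14 library 1. The EIF4A1 call was lost without shMETTL14 library 2 (edgeR adjusted p = 0.072) and with DESeq2 (adjusted p = 0.079), and over the alternatives p ran from 0.0028 to 0.079. With that limit, EIF4A2 held 98.2% of the counts of EIF4A1 and EIF4A2 in each shNC library and 97.1% and 96.8% in the shMETTL14 libraries (exact permutation p = 0.33). EIF4E1B, a germ-cell relative of EIF4E, had 0 counts in every library.

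**Figure D3:**
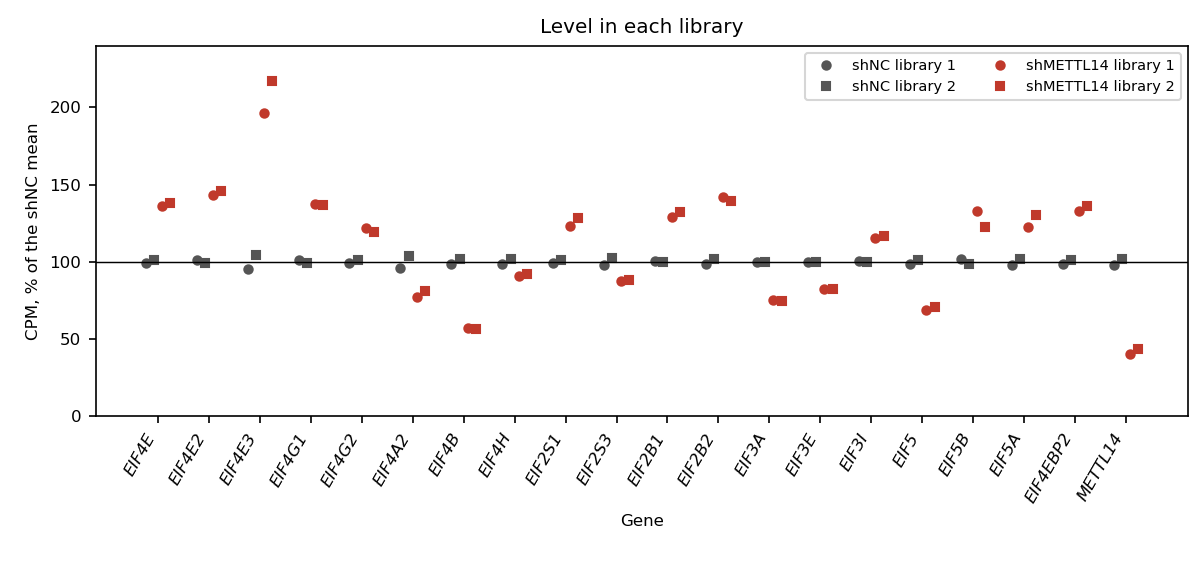
The level in each of the 4 libraries, as CPM in percent of the shNC mean (y axis, from 0), is plotted for 19 initiation factor genes and METTL14, with circles for library 1 and squares for library 2. All 19 were picked from the called members, and genes with scattered libraries such as EIF3C are not shown. That the libraries of each group lie close together here therefore follows in part from the choice. EIF4B falls to 56.6% while EIF4E3 rises to 207% of the control mean.

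All 5 subunit genes of the exchange factor eIF2B were called higher in shMETTL14. Over all genes tested 27.2% were called higher, and 43.7% of those with a mean of at least 1000 counts. EIF2B1 to EIF2B5, which encode the alpha to epsilon subunits of eIF2B, had a median log2 fold change of 0.21. Together with the 4 genes of eIF2, 6 of 9 genes rose, 2 fell and 1 was not called, with a median of 0.18 (0.12 with upper quartile normalization). EIF2B2 had 1136 and 1128 counts in shNC and 1610 and 1555 in shMETTL14 (log2 fold change 0.49, SE 0.0519, edgeR adjusted p = 5.7e-08). EIF2B1 had 1652 and 1577 counts in shNC and 2083 and 2101 in shMETTL14 (log2 fold change 0.38, SE 0.0465, edgeR adjusted p = 4.4e-07). The remaining subunits rose less.

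The smaller rises of eIF2B were less firm. EIF2B4 had 1103 and 1053 counts against 1273 and 1208 (log2 fold change 0.21, edgeR adjusted p = 0.0029). EIF2B5, the catalytic subunit, had 1431 and 1436 counts against 1611 and 1627 (log2 fold change 0.18, edgeR adjusted p = 0.0039), a call lost with DESeq2 (adjusted p = 0.053) and upper quartile normalization (edgeR adjusted p = 0.056) in a range from 0.0011 to 0.056. EIF2B3 had 953 and 954 counts against 1089 and 1011 (log2 fold change 0.15, edgeR adjusted p = 0.047), and 8 of 12 alternatives ended its call. Its adjusted p ran from 0.034 to 0.3, with 0.21 without shNC library 1 and 0.3 without shMETTL14 library 1 (edgeR). Other annotated genes cover 29.3% of the EIF2B2 transcript and 22.8% of that of EIF2B1, in each case on the opposite strand.

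The subunit genes of eIF2 itself moved apart. EIF2S1, the alpha subunit on which the stress kinases act, had 3041 and 2973 counts in shNC and 3710 and 3802 in shMETTL14 (log2 fold change 0.33, SE 0.0422, edgeR adjusted p = 9.1e-07). EIF2S3, the gamma subunit that binds GTP and the tRNA, had 6153 and 6192 counts against 5407 and 5356 (log2 fold change -0.19, SE 0.0399, edgeR adjusted p = 0.00041). EIF2S2, the beta subunit, had 5210 and 4918 counts against 4989 and 4945, which overlapped, with a log2 fold change of -0.02 (edgeR adjusted p = 0.72). One subunit gene thus rose, 1 fell and 1 was not called. EIF2S3B, a close copy of EIF2S3, had 144 and 141 counts against 115 and 92 (log2 fold change -0.45, edgeR adjusted p = 0.022), and reads of these copies may have been divided between them. The EIF2S3B call was lost without shMETTL14 library 2 (edgeR adjusted p = 0.2), without shNC library 2 (edgeR adjusted p = 0.073) and with DESeq2, in a range from 0.0089 to 0.2, whereas EIF2S3 kept its call throughout. The ratio of EIF2B1 to EIF2S3 counts was 0.268 and 0.255 in shNC and 0.385 and 0.392 in shMETTL14.

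The eIF3 genes did not move as a unit. Of the 14 genes, 4 were called higher, 3 lower and 7 were not called. The 7 called compare with 52.5% of all genes tested and 70.7% of those with a mean of at least 1000 counts. The median log2 fold change of the eIF3 genes was -0.02, a value near 0 whose sign changed under some alternatives. The largest decrease was in EIF3A, whose product is the largest subunit and a scaffold of the complex, with 13942 and 13406 counts in shNC and 10322 and 10059 in shMETTL14. In CPM the shNC level was 699.8 (SD 0.429, n = 2) and the shMETTL14 level 525 (SD 3.19, n = 2), or 75.0% of the control (log2 fold change -0.41, SE 0.0365, edgeR adjusted p = 3.7e-09). EIF3E had 7981 and 7677 counts in shNC and 6479 and 6362 in shMETTL14 (log2 fold change -0.28, SE 0.0379, edgeR adjusted p = 2.4e-06). EIF3L had 3923 and 4022 counts against 3525 and 3317 (log2 fold change -0.21, edgeR adjusted p = 0.00042), although other annotated genes cover 62.8% of its transcript. The knockdown libraries of all 3 genes lay below both controls, but the groups also did not overlap for 75.5% of all genes tested.

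The eIF3 genes called higher changed little. EIF3I had 3746 and 3579 counts in shNC and 4243 and 4210 in shMETTL14 (log2 fold change 0.22, SE 0.04, edgeR adjusted p = 0.0001). EIF3K, EIF3B and EIF3M followed with log2 fold changes of 0.17, 0.15 and 0.12 (edgeR adjusted p = 0.01, 0.0027 and 0.014). EIF3B and EIF3I encode neighbouring subunits at the edge of the complex. The EIF3K call was lost under 4 alternatives (adjusted p up to 0.19 with edgeR, reached without shNC library 1, where its log2 fold change was 0.09, against 0.25 without shNC library 2), the EIF3M call under 4 (adjusted p up to 0.27 with edgeR; 0.087 without shMETTL14 library 2) and the EIF3B call with upper quartile normalization (adjusted p = 0.08, edgeR). Their lowest adjusted p over the alternatives were 0.001, 0.0038 and 0.00013 with edgeR.

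The other 7 eIF3 genes were not called. EIF3D, EIF3F, EIF3H, EIF3J and EIF3G had log2 fold changes of -0.06, -0.03, -0.01, 0.03 and 0.06. EIF3D was called lower with upper quartile normalization (edgeR adjusted p = 0.015) and with library size alone (edgeR adjusted p = 0.04), in a range up to 0.88. EIF3C, a core subunit, had 1334 and 307 counts in shNC and 1060 and 530 in shMETTL14, so that libraries of 1 group differed more than the groups did. With all libraries EIF3C gave a log2 fold change near 0 (-0.03, SE 0.329, edgeR adjusted p = 0.95), but 1.35 without shNC library 1, -0.71 without shNC library 2, -0.59 without shMETTL14 library 1 and 0.39 without shMETTL14 library 2. EIF3CL, a near-identical copy, had 108 and 112 counts against 79 and 97 (log2 fold change -0.31, edgeR adjusted p = 0.15), and summing both genes gave -0.06 (edgeR adjusted p = 0.88), an alternative added after the data were seen. Whether reads were assigned unevenly between these copies was not tested. No direction can be read for EIF3C.

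Per kilobase of the longest coding transcript the eIF3 genes spanned a wide range of levels. EIF3E was highest, with 260 and 214 CPM per kb in shNC and shMETTL14, followed by EIF3G with 167 and 174. EIF3A went from 105 to 79.0 CPM per kb and thereby from above to below EIF3B and EIF3K, which went from 87.8 to 97.5 and from 88.9 to 100. The ratio of EIF3A to EIF3B counts fell from 2.66 and 2.56 to 1.78 and 1.75. EIF3C and EIF3CL were lowest, at 13.2 and 1.83 CPM per kb in shNC. These levels depend on the annotated transcript length, which is 7540 bases for EIF3F, the gene next above EIF3C with 31.9 CPM per kb.

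**Figure D4:**
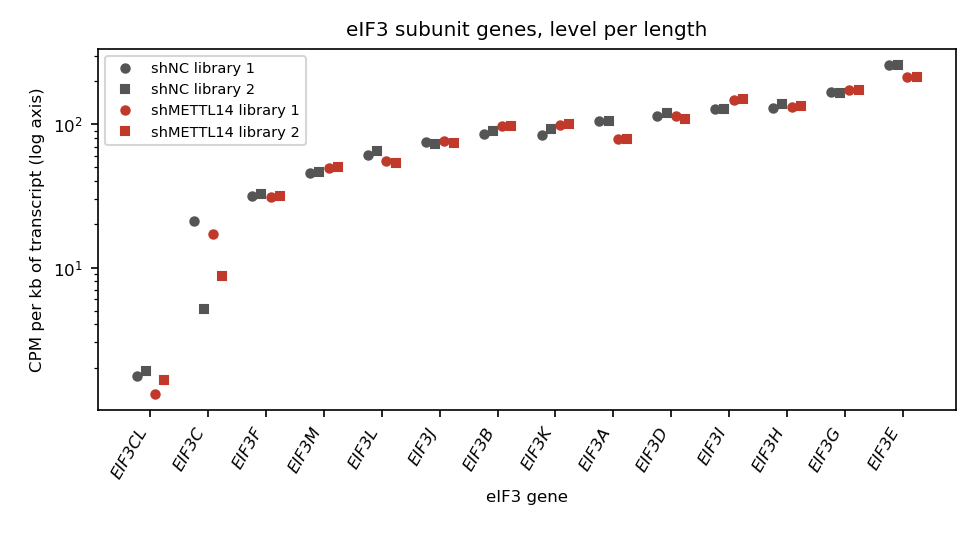
CPM per kilobase of the longest coding transcript (y axis, log scale) is plotted for the 14 eIF3 genes in each library, ordered by the shNC mean. EIF3E falls from 260 to 214 and EIF3A from 105 to 79.0, while the libraries of EIF3C scatter between 5.10 and 21.3.

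Genes for scanning and start codon choice were lower or not called. EIF5, which makes eIF2 hydrolyse its GTP once a start codon is found, had 4671 and 4603 counts in shNC and 3207 and 3239 in shMETTL14. In CPM its knockdown level of 166 (SD 3.19, n = 2) compared with 237 (SD 4.26, n = 2) in the control, or 70.0%, the second largest decrease among the members (log2 fold change -0.52, SE 0.041, edgeR adjusted p = 7.3e-10). EIF5 had no tract at its annotated starts. EIF1, which keeps the scanning ribosome from stopping at poor start codons, had 12788 and 13084 counts against 11904 and 11728 (log2 fold change -0.12, edgeR adjusted p = 0.012). That call was lost without shNC library 2 (edgeR adjusted p = 0.13) and without either shMETTL14 library (edgeR adjusted p = 0.075 and 0.078), in a range from 0.00033 to 0.13. EIF1AX, the X-linked gene of eIF1A, had 2927 and 2884 counts against 2719 and 2777 (log2 fold change -0.07, edgeR adjusted p = 0.18), and was called lower with upper quartile normalization (edgeR adjusted p = 0.01) and library size alone (edgeR adjusted p = 0.028), while its highest p over the alternatives was 0.64. EIF1B, a paralog of EIF1, had a log2 fold change of 0.13 (edgeR adjusted p = 0.13). It held 5.07% and 4.75% of the counts of both paralogs in shNC and 5.94% and 5.64% in shMETTL14 (exact permutation p = 0.33).

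The factors of subunit joining and of other tRNA delivery split in direction. EIF5B, the GTPase that joins the ribosomal subunits, had 7481 and 6968 counts in shNC and 9615 and 8691 in shMETTL14 (log2 fold change 0.35, SE 0.0424, edgeR adjusted p = 4.2e-07). Its ratio to EIF5, the GTPase activator of the step before, was 1.60 and 1.51 in shNC and 2.998 and 2.68 in shMETTL14. EIF6, which keeps the large subunit from joining too early, had 1077 and 1081 counts against 1282 and 1255 (log2 fold change 0.24, edgeR adjusted p = 0.00087), with 22.0% of its transcript covered by other genes. EIF2D and EIF2A deliver tRNA without eIF2, and both fell. EIF2D had 1149 and 1116 counts against 958 and 822 (log2 fold change -0.34, SE 0.0657, edgeR adjusted p = 0.00017). EIF2A had 3714 and 3541 counts against 3275 and 3159 (log2 fold change -0.16, SE 0.0411, edgeR adjusted p = 0.002). These were the tract genes shown above, and both kept their calls under all 12 alternatives.

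EIF5A, which helps the ribosome through poor peptide bond sites and is the known carrier of the amino acid hypusine, had 7756 and 7750 counts in shNC and 9531 and 9951 in shMETTL14 (log2 fold change 0.34, SE 0.0405, edgeR adjusted p = 3.6e-07). Other genes cover 29.7% of its longest coding transcript. Its paralog EIF5A2 and its close copy EIF5AL1 had log2 fold changes of 0.24 and 0.26 at 118 to 231 counts per library, and neither was called (edgeR adjusted p = 0.092 and 0.14). EIF5A2 held 2.46% and 2.44% of the counts of EIF5A and EIF5A2 in shNC and 2.32% and 2.27% in shMETTL14, with counting intervals that overlapped (exact permutation p = 0.33).

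Regulators that carry an EIF symbol were higher or not called. EIF4EBP2, a repressor that sequesters eIF4E until mTORC1 releases it, had 3487 and 3448 counts in shNC and 4617 and 4656 in shMETTL14 (log2 fold change 0.43, SE 0.0408, edgeR adjusted p = 1.3e-08). EIF4E rose alongside it, so the ratio of EIF4E to EIF4EBP2 counts was 0.484 and 0.480 in shNC and 0.495 and 0.487 in shMETTL14, with an shMETTL14 to shNC ratio of 1.02. EIF4ENIF1, which carries eIF4E into the nucleus and into P-bodies, had a log2 fold change of 0.16 (edgeR adjusted p = 0.075), and EIF2AK1, the heme-regulated kinase of eIF2, 0.04 (edgeR adjusted p = 0.46). EIF4EBP3 had between 1 and 7 counts per library. A pair of members known for other work both rose, EIF4A3 of the exon junction complex with 1893 and 1865 counts against 2341 and 2323 (log2 fold change 0.32, edgeR adjusted p = 3.3e-06), and EIF1AD, which has an eIF1A-like domain, with 819 and 799 against 1098 and 1125 (log2 fold change 0.47, edgeR adjusted p = 1.3e-06).

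Regulators of initiation outside the members were counted from lists. Of 39 such genes, all tested, 20 were higher, 8 lower and 11 not called, with a median log2 fold change of 0.12. The 28 called of 39 compare with 52.5% of all genes tested and 70.7% of those with a mean of at least 1000 counts, and the counts of the shorter lists below are to be read against the same shares. Of the 14 genes of cap and mTORC1 control, 9 rose and 2 fell. EIF4EBP1, the best known eIF4E-binding protein, rose by 0.46, the mTORC1 scaffold RPTOR by 0.44, the kinase MTOR by 0.23 and its activator RHEB by 0.27 on the log2 scale. LARP1, the tract-binding protein, rose by 0.17. PDCD4, an inhibitor of eIF4A, was lower at -0.60, with 2630 and 2519 counts in shNC and 1767 and 1612 in shMETTL14 (edgeR adjusted p = 7.2e-10).

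The eIF2 kinases and the stress response downstream of eIF2 did not share a direction. Of 10 genes, 3 were higher, 3 lower and 4 not called. The transcription factor ATF4 fell (log2 fold change -0.28). Of the other response genes in the list, ASNS, asparagine synthetase, and CHAC1, a glutathione-degrading enzyme, fell (-1.03 and -0.66). TRIB3, a pseudokinase, and PPP1R15A, a subunit that directs a phosphatase to eIF2, rose (0.19 and 0.41). DDIT3, a stress transcription factor, was not called (-0.09, edgeR adjusted p = 0.37), nor was PPP1R15B (0.02). The kinase EIF2AK2 was higher at 0.11, while the kinases EIF2AK3 and EIF2AK4 were not called. Among the 8 poly(A) and mRNA binding partners, 3 rose and 2 fell, the latter being PABPC1 (-0.35), the main poly(A)-binding protein, and PAIP2B (-1.07), an inhibitor of that protein. Of 5 recycling genes, ABCE1, DENR, MCTS1 and PELO rose and HBS1L fell (-0.78). DOHH, the second enzyme of hypusine synthesis, rose by 0.24, and DHPS, the first, was not called at 32 to 55 counts per library.

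Elongation and termination genes showed a similar mixture. Of 11 listed, 10 were tested, 5 were higher, 2 lower and 3 not called, and EEF1G was listed at 0 counts in every library. Whether reads of EEF1G were left unassigned was not tested, so its 0 counts are not read as absence. The genes that fell were EEF1A1, which brings tRNA to the ribosome (-0.34), and EEF2, which moves it along the mRNA (-0.44), and both have a tract at an annotated start. EEF1B2, the third tract gene of that list, was not called (log2 fold change 0.0003). TRIB3, also a tract gene, was higher. Of the mitochondrial initiation factors MTIF2 fell (-0.35) and MTIF3 was not called.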

How the data were processed

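RNA was sequenced from 4 SK-N-BE(2) libraries (Illumina NovaSeq, paired ends). The authors deposited raw counts for 60671 gene IDs, and 0 columns of other samples were present. The submitters' processing notes name HISAT2 2.1.0, StringTie 1.3.6, HTSeq 0.13.5, edgeR and GRCh38/hg38. Annotation release and strand setting are not given in the sources used here, so reads shared by overlapping genes or near-identical copies may be misassigned. Other genes overlap the longest coding transcript of 23 members, and 23 members have named pseudogenes (80 in all). Lines without a gene (19.1% to 19.9% of counts, ambiguous reads 5.01% to 5.32%, several alignments 2.52% to 2.58%) were left out. A table of gene names held 60401 of the IDs. Coordinates, lengths and overlaps came from GENCODE 29, which need not be the authors' annotation.

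Tests used edgeR 4.0.16 in R 4.3.3 (quasi-likelihood F-test, TMM, filterByExpr with minimum count 10 and minimum total 15, group as sole term). Benjamini-Hochberg adjustment covered all 16309 genes passing the filter, with calls at adjusted p under 0.05. CPM values were computed after TMM scaling. Each SE is the absolute log2 fold change divided by the square root of the F statistic, so it was derived from the test and not estimated separately. The biological coefficient of variation was 3.45%. The mean chi-square per gene between replicate libraries was 2.66 (shNC) and 2.21 (shMETTL14), where sampling noise gives about 1. Calls rest on a variance model with information from all genes. The script was tested on simulated counts, which does not check the calls made on these libraries. Wilson intervals (95%) cover counting error only. Alternatives were other scalings and count filters, DESeq2 1.42.0, a replicate block, leaving out each library, a 1.5-fold limit and, added after the data were seen, summed near-identical copies. Permutation tests and intervals used scipy 1.17.1, and figures matplotlib 3.10.9. Every member, METTL14 and genes of the related lists could be named. Members, lists and tests were chosen with earlier results of these data known. One marker of another cell type is not reported here.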

Additional observations from a re-analysis of the deposited data

How the results depend on the processing

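Of the 35 called members, 25 kept their call under all 12 alternatives for single genes and 0 changed direction. The counts of 23 higher and 12 lower became 1 and 1 when 1.5-fold was also asked for, 17 and 14 with upper quartile normalization and 17 and 11 with DESeq2. Leaving out 1 library, which leaves a lone library assumed to vary like the other group, gave 21 to 22 higher and 10 to 12 lower. With upper quartile normalization the median log2 fold changes were 0.0639 for all members, 0.1171 for eIF2 and eIF2B, -0.0854 for eIF3 and 0.2919 for eIF4F. With library size alone they were 0.0864, 0.1397, -0.0628 and 0.3144. Asking for at least 10 counts in every library gave 0.1666 for eIF2 and eIF2B. Leaving out 1 library, the medians ran from 0.1098 to 0.1738 for all members, from 0.1488 to 0.2124 for eIF2 and eIF2B, from -0.0079 to 0.0306 for eIF3 and from 0.3204 to 0.3684 for eIF4F. Genes that were not called changed sign as follows. EIF3J was at -0.0404 with upper quartile normalization and -0.0179 with library size alone, EIF2AK1 at -0.0298 and -0.0073, and EIF3G at -0.0102 with the first of these. EIF3H was at 0.0029 with no filter and ran from -0.0554 to 0.0422 without 1 library, and EIF3F from -0.0574 to 0.0013. EIF3C ran from -0.7051 to 1.3462 without 1 library. The cause was not tested.

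Same-numbered libraries of the groups share only a number. The correlation of their deviations from the group means was 0.0468 (Pearson) and 0.0429 (Spearman) across genes, which are not independent replicates. A fit with the replicate number as a block called 23 members higher and 12 lower. The block moved the eIF3 median to 0.0102 and EIF3C to 0.0809. At this depth, members with few counts (EIF4E3, EIF4A1, EIF2S3B, EIF3CL, EIF5A2, EIF5AL1) carry standard errors above 0.1 on the log2 scale.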
